A study of Mus musculus with 9 samples.

Results

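The stress keratins are the products of 4 mouse genes, Krt6a, Krt6b, Krt16 and Krt17, chosen here by symbol alone and not by their values. Each of the 9 deposited count tables held 1 entry for each of the 4 among 23282 entries, and all 4 were among the 13740 genes left by the low-count filter. The tables come from back skin of wild-type C57BL/6 mice in 3 groups of 3 libraries: unstripped skin, which the labels list with control cream; stripped control skin, which was tape-stripped and given control cream; and NGO-treated skin, which was tape-stripped and given cream holding NGO, a graphene oxide of nano size. Per the labels' protocols, the NGO cream was given at 50 µg in 100 µL per mouse, skin was taken 24 h after treatment, and each library was made from 500 ng of total RNA with Lexogen's QuantSeq kit, which reads messenger RNA at its 3' end. The protocol mentions cream for the stripped area only, and the labels do not settle if unstripped skin got any. Age and sex were not given in the sources used here. The labels do not tie replicates 1 to 3 to separate mice. The p-values therefore measure only the spread among these libraries, and that spread may be technical. In whole skin, fewer cells of a type and less RNA per cell cannot be told apart.

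Keratins form the intermediate filaments of epithelial cells, and each filament is built from pairs of an acidic type I keratin with a basic type II keratin. Krt6a and Krt6b encode type II keratins, and Krt16 and Krt17 encode type I keratins that can pair with them. In resting mouse skin these keratins are found mainly in hair follicles and other appendages, while the epidermis between follicles uses Krt5 with Krt14 in its basal layer and Krt1 with Krt10 above it. After injury, keratinocytes at a wound edge are known to switch the stress keratins on within hours, and the same genes are raised in psoriasis and other inflamed or fast-growing epidermis.

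In mm10 coordinates, taken from the GENCODE M21 annotation of the same assembly, Krt6a lies at chr15:101689910-101694307 (ENSMUSG00000058354.7) and Krt6b at chr15:101676023-101680287 (ENSMUSG00000023041.7), 9623 bases apart. Krt16 lies at chr11:100246091-100248902 (ENSMUSG00000053797.10) and Krt17 at chr11:100256217-100261029 (ENSMUSG00000035557.9). All 4 are on the minus strand, with 9 exons in Krt6a and Krt6b and 8 in Krt16 and Krt17. On the opposite strand GENCODE places the antisense gene Gm49428 and the miRNA gene Gm44342 within Krt6a, and the miRNA gene Gm44383 within Krt6b, and the sources used here do not say how counting treated strand.

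Because Krt6a and Krt6b are near-identical in their coding sequence, their 3' ends decide how well a 3'-end library can tell them apart. The coding sequences were identical at 97.6% of 1665 aligned positions, and the 3' untranslated regions at 70.9%. The last 90 coding bases, stop codon included, are printed to show how alike the pair is. They lie in exon 9 of 9, at chr15:101690467-101690556 in Krt6a and chr15:101676529-101676618 in Krt6b (both minus strand), and capitals mark bases that are not identical in the alignment of the whole coding sequences.
Krt6a: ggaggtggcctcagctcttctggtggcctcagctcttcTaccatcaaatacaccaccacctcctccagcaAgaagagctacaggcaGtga
Krt6b: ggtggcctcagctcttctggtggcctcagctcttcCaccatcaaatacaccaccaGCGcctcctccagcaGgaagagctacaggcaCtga
In these 90 bases 3 of Krt6a and 6 of Krt6b were marked, an insertion of 3 bases in Krt6b among them. The last 500 bases of both transcripts, all untranslated, told the pair apart: 0 of 451 windows of 50 bases, and 0 of 426 windows of 75 bases, occurred exactly in a transcript of any other gene. Reads that fell further 5', in the coding sequence, could be shared, and the sources used here state neither the read length nor the handling of reads with several matches.

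Krt16 and Krt17 were identical at 70.9% of aligned coding positions, and Krt16 at 83.2% with Krt14. In the last 500 bases of Krt16, 76 of 451 windows of 50 bases (16.9%) occurred in another gene, namely Krt14, Krt17 or the pseudogene Gm11597. For Krt17 43 windows (9.53%) did, in Krt14 or Krt16. Of 426 windows of 75 bases, 33 of Krt16 (7.75%) did, in Gm11597 only, and 0 of Krt17. The longest run that Krt16 shared with both Krt14 and Krt17 in that stretch was 55 coding bases at chr11:100246625-100246679 (minus strand), which ended 300 bases before the end of the Krt16 transcript. It is shown because a read lying wholly inside it cannot be given to 1 of the 3 genes.
Krt16: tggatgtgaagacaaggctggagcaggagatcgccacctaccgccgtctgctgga

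The libraries held 2019739 to 6303322 counts, and the 4 genes together took 0.108% to 0.877% of them. The groups also differed in tissue content, shown here as the summed share of counts of marker lists. The 15 skeletal muscle markers took 0.00971% to 0.150% in unstripped, 4.39% to 9.69% in stripped control and 2.30% to 4.49% in NGO-treated skin. The 9 basal keratinocyte markers, all detected in each group, took 2.70% to 3.33%, 0.144% to 0.243% and 1.34% to 2.09% in the same order. The suprabasal markers took 0.685% to 1.52%, 0.0191% to 0.0398% and 0.103% to 0.146%, and Ivl was at 0 in stripped control skin. These shares moved with the groups compared below, and their part in each result was not tested beyond the ratios within a library given further on.

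Mean Krt6a was lowest in unstripped and highest in NGO-treated skin, while Krt17 was lowest in stripped control skin. Levels are in CPM, a gene's counts relative to the library's total, scaled by the TMM factors of edgeR. Krt6a, the more heavily counted of the type II pair, stood at 1221, 346 and 334 CPM in unstripped replicates 1 to 3, at 1882, 1654 and 1275 CPM in stripped control, and at 4635, 6172 and 3562 CPM in NGO-treated skin. No group overlapped another, and unstripped replicate 1 was high, close to the lowest stripped control library.

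Krt6b stood at 166, 77.2 and 52.5 CPM in unstripped, at 127, 158 and 153 CPM in stripped control, and at 394, 573 and 521 CPM in NGO-treated skin. Unstripped replicate 1 was above all 3 stripped control libraries, and the NGO-treated libraries were above all others.

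Krt16, a type I partner of Krt6, stood at 309, 128 and 101 CPM in unstripped, at 200, 170 and 88.04 CPM in stripped control, and at 354, 450 and 234 CPM in NGO-treated skin. Unstripped and stripped control libraries overlapped. The NGO-treated libraries were above every stripped control library but overlapped unstripped replicate 1.

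Krt17, the other type I gene, which is also strong in hair follicles, stood at 1050, 482 and 444 CPM in unstripped, at 214, 234 and 275 CPM in stripped control, and at 678, 773 and 370 CPM in NGO-treated skin. Every stripped control library was below every library of the other groups, and the unstripped and NGO-treated libraries overlapped.

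**Figure D1:**
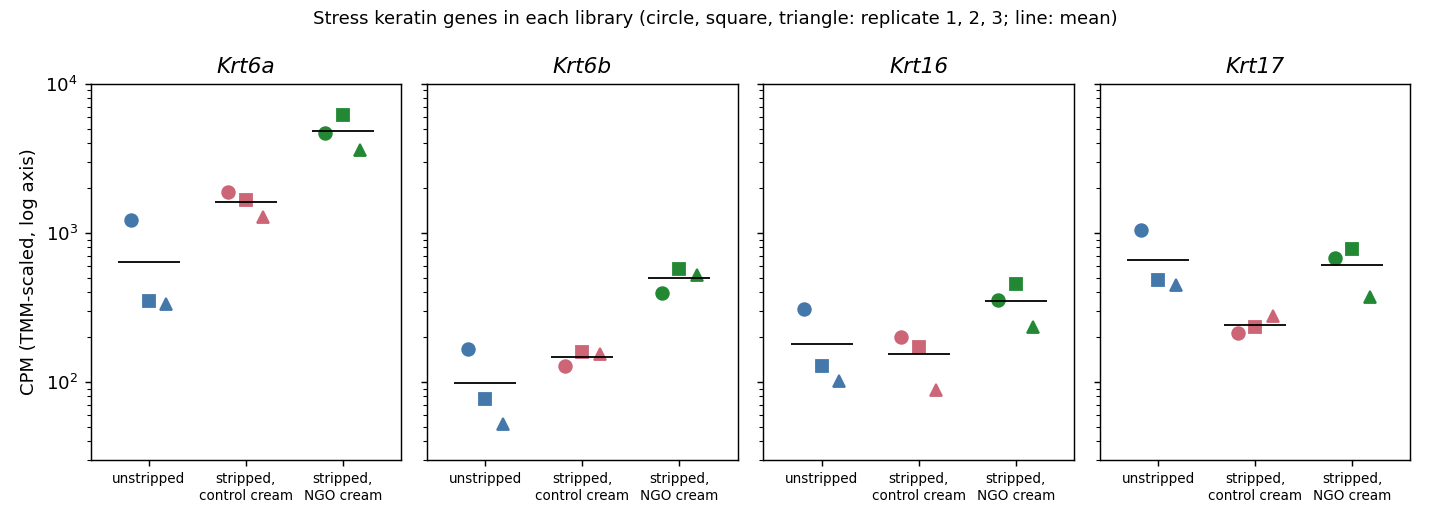
Level of each stress keratin gene in the 9 libraries, in TMM-scaled CPM on a log axis, with 1 point per library and a line at the mean of each group (n = 3). Krt6a has means of 634, 1603.5 and 4789 CPM over the 3 groups, whereas Krt17 has 659, 241 and 607 CPM.

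Unstripped replicate 1 stood apart from its group in all 4 genes, with a coefficient of variation across the 3 libraries of 80.3% for Krt6a, 60.6% for Krt6b, 63.01% for Krt16 and 51.6% for Krt17. Krt14 was high there too (12291 CPM against 4867 and 4430), while Krt5 was not (6798 against 5851 and 6413 CPM). In that library the suprabasal markers took 0.685% of counts against 1.43% and 1.52%, and the 10 cell division markers 0.131% against 0.0884% and 0.0699%. The part of these differences in the keratin values was not tested, and the 4 genes' results that move most without that library are given both ways.

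In the first comparison the stripped control libraries were tested against the unstripped ones, and "after stripping" names this difference throughout. Whether unstripped skin got cream is not settled, so stripping and cream may have differed together. Their separate parts were not tested. Krt17 fell and was the only member to pass: 1 of 4 was called lower, where 7.64% of all genes tested were. Krt17 went from 659 ± 340 to 241 ± 31.3 CPM (SD, n = 3), a log2 fold change of -1.45 ± 0.38 (SE; edgeR quasi-likelihood adjusted p = 0.023). Krt6a went the other way, from 634 ± 509 to 1603.5 ± 307 CPM, by 1.34 ± 0.46, and did not pass (edgeR adjusted p = 0.0699). Krt6b changed by 0.57 ± 0.39 (0.390) and Krt16 by -0.23 ± 0.45 (0.811), neither past the threshold. No member was called higher, where 5.97% of all genes were. All stripped control libraries were above all unstripped ones for Krt6a, as for 13.8% of all genes tested, and below them for Krt17, as for 24.7%. The median over the 4 was 0.17, against -0.20 over all genes.

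Which genes passed in that comparison depended in part on unstripped replicate 1. Without it Krt6a rose by 2.22 ± 0.32 (edgeR adjusted p = 0.00121), Krt17 no longer passed (-0.95 ± 0.34, 0.115) and Krt16 changed sign (0.40 ± 0.41, 0.663). Krt6b went to 1.16 ± 0.34 and still did not pass (0.0567). Krt17 was also lost without stripped control replicate 2 (-1.40 ± 0.45, 0.0617). Krt6a, counted together with Krt6b in 1 of them, passed under 5 of the 10 alternatives other than leaving out single libraries, among them RLE scaling (edgeR adjusted p = 0.0477) and DESeq2 (adjusted p = 0.0118). Krt17 passed under all 9 of those that kept Krt6a and Krt6b apart. With 1 library left out it passed in 7 of 9 fits.

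**Figure D2:**
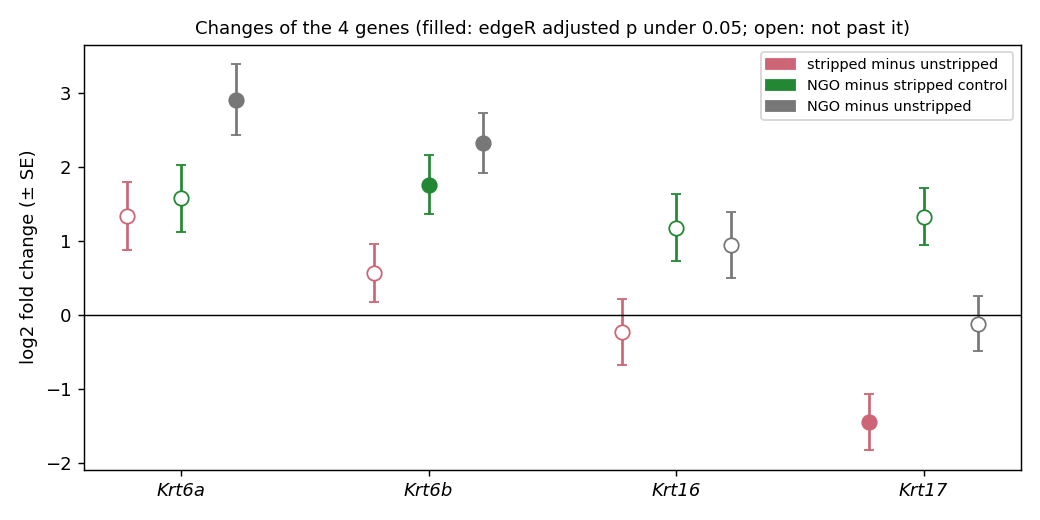
Fitted log2 fold change with its SE for the 4 genes in the 3 comparisons, filled where the edgeR adjusted p was under 0.05. Krt17 alone passes after stripping (-1.45), Krt6b alone passes with NGO against stripped control (1.76), and Krt6a and Krt6b pass with NGO against unstripped skin (2.92 and 2.33).

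The second comparison set NGO-treated against stripped control skin, the contrast named in the series title. All 4 genes were higher in each NGO-treated library than in any stripped control library, a separation in that direction that 16.3% of all genes tested showed. By the gene test 1 of 4 rose, where 3.87% of all genes did. Krt6b rose from 146 ± 16.4 to 496 ± 92.5 CPM, by 1.76 ± 0.40 (edgeR adjusted p = 0.025), or 3.40-fold. Krt6a went from 1603.5 ± 307 to 4789 ± 1312 CPM (1.58 ± 0.46, 0.0649), Krt17 from 241 ± 31.3 to 607 ± 211 CPM (1.33 ± 0.38, 0.0621) and Krt16 from 153 ± 58.1 to 346 ± 108 CPM (1.18 ± 0.45, 0.153), and these 3 did not pass. The median over the 4 was 1.46, against 0.072 over all genes.

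These values lie near the threshold on both sides. Krt6b was lost without NGO replicate 1, 2 or 3 (edgeR adjusted p = 0.0592, 0.0817 and 0.0725). Its log2 fold change was then 1.91, 1.65 and 1.68. Over all genes 177, 266 and 240 were called higher in those fits, against 532 with all libraries. Krt6a and Krt17 passed without unstripped replicate 1 (edgeR adjusted p = 0.00972 and 0.0382), a library of neither group, whose removal also left 14936 genes after the filter, and with DESeq2 (adjusted p = 0.023 and 0.0303). With the counts of Krt6a and Krt6b added into 1 gene, the sum changed by 1.60 ± 0.45 and did not pass (edgeR adjusted p = 0.0564).

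The third comparison set NGO-treated against unstripped skin and shares libraries with both others. Both type II genes rose and the type I genes did not pass: 2 of 4 were called higher, where 2.06% of all genes were. Krt6a rose by 2.92 ± 0.48, or 7.56-fold (edgeR adjusted p = 0.00434), and Krt6b by 2.33 ± 0.40, or 5.03-fold (0.00591). Both were higher in every NGO-treated library than in any unstripped one, as were 11.9% of all genes tested. Krt16 differed by 0.95 ± 0.45 (0.449) and Krt17 by -0.12 ± 0.38 (0.990). Krt6a and Krt6b passed whichever of the 9 libraries was left out. Without unstripped replicate 1 the log2 fold change of Krt6a was 3.81, and that of Krt6b 2.93. Krt16 then stood at 1.59 ± 0.43 and did not pass (edgeR adjusted p = 0.112), and Krt17 at 0.38 ± 0.34 (0.874).

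The make-up of the stress keratin counts differed between unstripped and stripped skin. Krt6a held 44.5%, 33.5% and 35.8% of the 4 genes' counts in the unstripped libraries, 77.7%, 74.7% and 71.2% under stripped control, and 76.5%, 77.5% and 76.0% with NGO. Krt17 held 38.2% to 47.6%, 8.83% to 15.4% and 7.90% to 11.2% in the same order. The unstripped libraries were thus split between Krt6a and Krt17, and all 6 stripped libraries were mostly Krt6a. Each such share is a share of counts in 1 library and does not depend on how libraries are scaled.

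**Figure D3:**
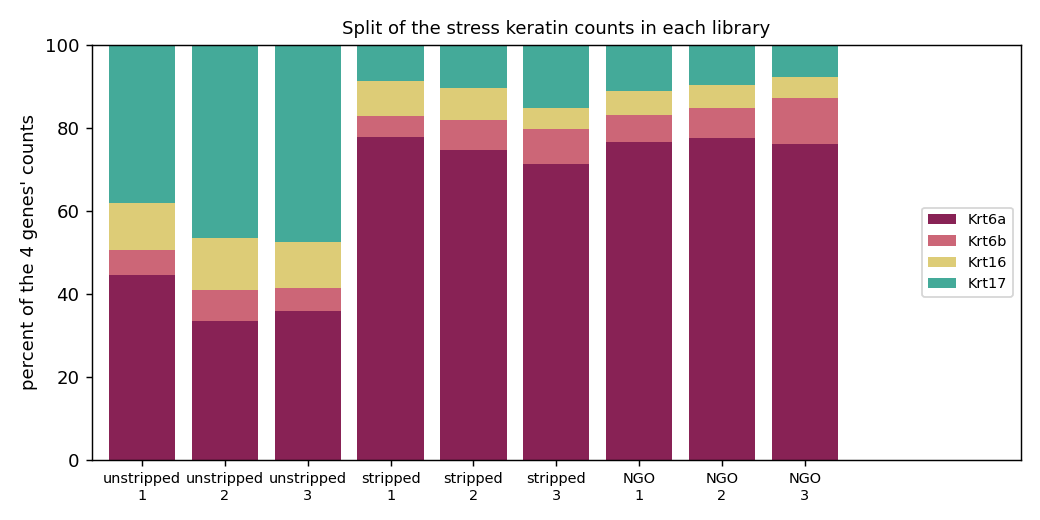
Split of the summed counts of the 4 genes in each library, in percent, with 1 bar per library. Krt17 takes 38.2% to 47.6% of the bar in unstripped skin and at most 15.4% in any stripped library, with or without NGO.

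The same shift shows as the ratio of type II to type I counts, a measure added after the data were seen. The log2 ratio of Krt6a plus Krt6b to Krt16 plus Krt17 was 0.030, -0.52 and -0.50 in the unstripped libraries, 2.28, 2.16 and 1.97 in stripped control, and 2.28, 2.46 and 2.76 in NGO-treated skin. The mean was 2.47 higher in stripped control than in unstripped skin, and the groups did not overlap (exact permutation test, two-sided p = 0.1, the smallest p that 3 libraries against 3 allow). NGO-treated libraries lay 0.36 above stripped control libraries on average, also without overlap (exact p = 0.1). That separation was narrow, with stripped control replicate 1 at 2.278 and NGO replicate 1 at 2.284. Of the 6 ratios between single genes, that of Krt6a to Krt17 differed most between stripped control and unstripped skin, by 2.95. Over the 18 tests of these 6 ratios in 3 comparisons, the exact p was 0.1 or more and the adjusted p 0.164 or more. None of the 6 separated NGO-treated from stripped control libraries.

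Within the Krt6 pair, Krt6a held 88.03%, 81.8% and 86.4% of the counts in the unstripped libraries, 93.7%, 91.3% and 89.3% in stripped control and 92.2%, 91.5% and 87.2% in NGO-treated skin. The widest exact 95% binomial interval of a library, 79.7% to 83.7% in unstripped replicate 2, covers counting error only. Stripped control libraries lay above unstripped ones, by 6.01 percentage points on average (exact p = 0.1). NGO-treated libraries overlapped both other groups (exact p = 0.7 against stripped control and 0.2 against unstripped).

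Set against the basal keratin pair of the same library, the stress keratins were highest in stripped control skin. The log2 ratio of the 4 genes' counts to those of Krt5 plus Krt14 was -2.80, -3.38 and -3.54 in the unstripped libraries, 0.58, 0.27 and 0.88 in stripped control, and -1.37, -0.29 and -1.32 in NGO-treated skin. The 3 groups did not overlap. The ratio was 3.81 higher in stripped control than in unstripped skin, and the mean of NGO-treated skin lay 1.57 below that of stripped control and 2.24 above that of unstripped skin (exact permutation p = 0.1 each, the smallest possible). With Krt5 alone below the line, or with the basal markers other than Krt15, the first difference was 3.99 and 3.36. The difference of NGO-treated from stripped control skin was then -1.81 and -1.10. Over Krt5 plus Krt14 it ran from -1.92 to -1.38 with 1 library left out. In this ratio stripped control skin was highest, whereas the 4 genes' share of all counts was highest with NGO. Mean shares were 0.171%, 0.182% and 0.665% over the 3 groups. The basal pair moved too: mean Krt5 was 6354, 639 and 6216 CPM, and mean Krt14 7196, 838 and 6158 CPM. The higher ratio after stripping thus went with lower Krt5 and Krt14. The lower ratio with NGO went with higher levels of the 4 genes and of the basal pair alike.

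**Figure D4:**
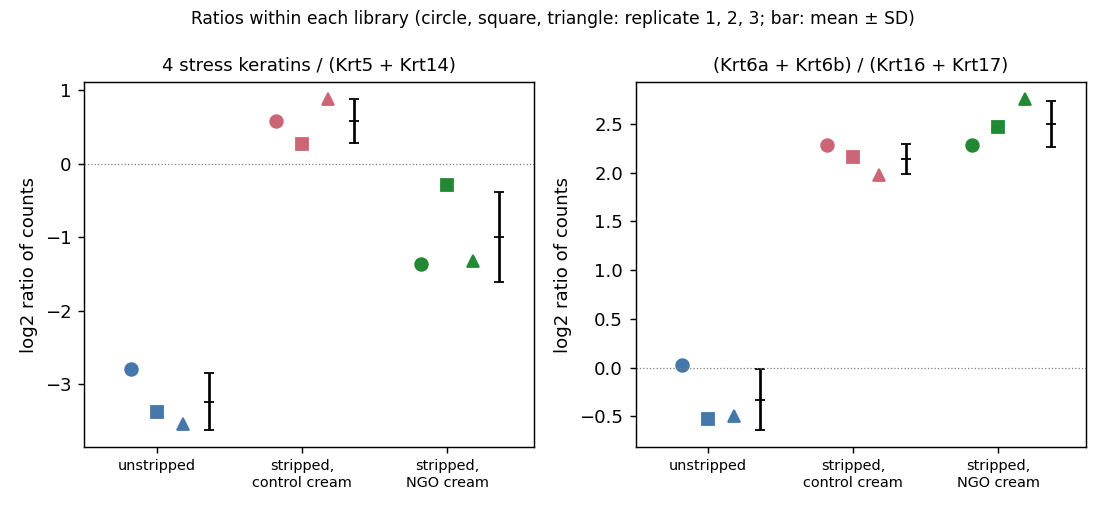
Log2 ratios of counts within each library: the 4 stress keratins over Krt5 plus Krt14 on the left, and Krt6a plus Krt6b over Krt16 plus Krt17 on the right, with 1 point per library and the mean ± SD (n = 3). The left ratio has means of -3.24, 0.58 and -0.99 over the 3 groups, and the right ratio has means of -0.33, 2.14 and 2.50.

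Most other epidermal keratins fell after stripping and rose with NGO. Of 15 listed, 12 were tested. After stripping 9 fell and 0 rose, with a median log2 fold change of -5.20, and with NGO against stripped control 7 rose and 0 fell, with a median of 3.37. Both medians were the same with keratins at 0 in a group set at the floor of 3 counts over that group. For this and the lists below, 5.97% of all 13740 genes tested rose and 7.64% fell after stripping. With NGO against stripped control 3.87% rose, and 162 genes fell. No list was tested against these shares. The basal type II keratin Krt5 went from 6354 ± 476 to 639 ± 216 and 6216 ± 1085 CPM over the 3 groups (-3.31 ± 0.33, edgeR adjusted p = 4.1e-05, then 3.28 ± 0.33, 0.000557). Its partner Krt14 changed by -3.10 ± 0.45 and 2.88 ± 0.44. The suprabasal keratins Krt1 and Krt10 fell by 9.20 ± 0.83 and 5.66 ± 0.56 on the log2 scale after stripping. Krt1 then rose by 6.03 ± 0.77 with NGO, while Krt10 did not pass (0.86 ± 0.47, edgeR adjusted p = 0.317). Krt15, a keratin of basal and follicle stem cells, fell by 7.88 ± 0.46 and rose by 3.77 ± 0.38.

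**Figure D5:**
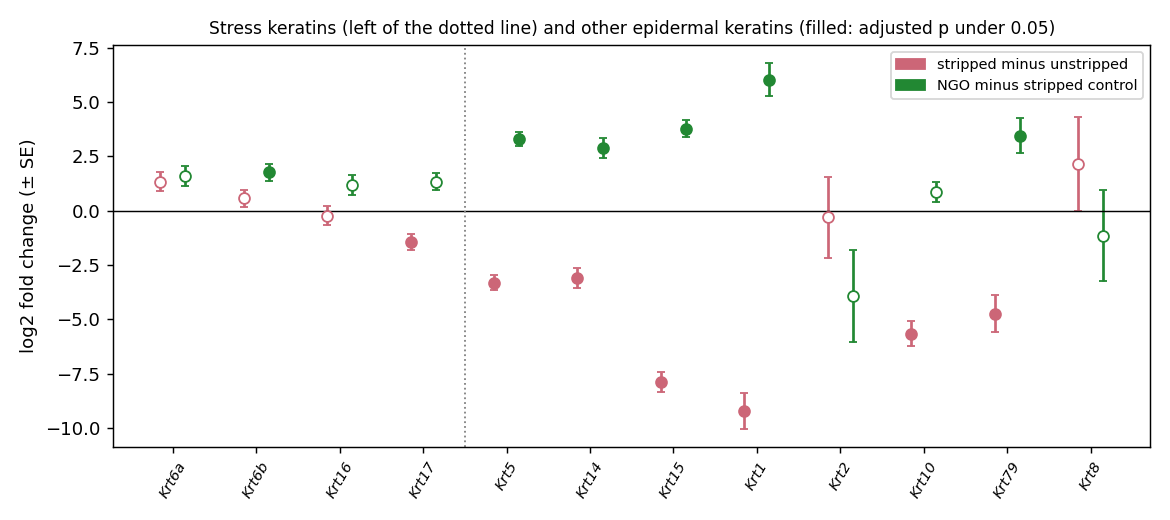
Log2 fold change with its SE after stripping and with NGO for the 4 stress keratins, left of the dotted line, and the 8 other tested keratins that had counts in every group, filled where the edgeR adjusted p was under 0.05. Krt5, Krt14, Krt15, Krt1 and Krt79 fall and then rise past the threshold, whereas of the stress keratins Krt17 alone falls past it. Mean Krt1 was 0.867 CPM in stripped control skin, so the sizes of its changes are uncertain.

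Some growth factors and cytokines known to induce stress keratins rose after stripping. Of 21 listed ligands 13 were tested: 6 rose and 1 fell after stripping (median 3.12), and 0 rose and 2 fell with NGO (median -1.18). Without unstripped replicate 1 the first counts were 4 and 0. Hbegf, a ligand of the EGF receptor, went from 71.8 ± 44.7 to 622 ± 88.3 and 211 ± 57.6 CPM over the 3 groups. It rose by 3.12 ± 0.43 (edgeR adjusted p = 0.000334) and fell by 1.56 ± 0.41 (0.0436), a fall lost when any of 6 libraries was left out. Il1b rose by 6.49 ± 0.56 and fell by 2.38 ± 0.46, and the fall was lost without NGO replicate 1 or 3 (edgeR adjusted p = 0.0677 and 0.0535). Il24 rose by 4.45 ± 1.07 after stripping and did not pass with NGO (0.22 ± 0.89). Il19, at 0 in unstripped skin, stood at 24.9 CPM in stripped control and 11.006 CPM in NGO-treated skin. Il17a, Il22 and Ifng, cytokines of T cells and other lymphocytes, had 0 counts in all 9 libraries, which allows up to 0.0944 CPM over the pooled libraries, unscaled and by counting error alone.

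Most of their receptors did not pass in either comparison. Of 15 tested, 0 rose and 3 fell after stripping, and 1 rose and 0 fell with NGO. Without unstripped replicate 1, 1 fell after stripping. The receptor subunit gene Il20rb, which serves IL-19, IL-20 and IL-24 signalling, fell by 7.64 ± 0.93 and rose by 5.95 ± 0.89. It stood at 0, 3.57 and 0 CPM in the stripped control libraries, close to the floor. The sizes of its changes are therefore uncertain. Il17rc (-2.62 ± 0.66) and Ifngr1 (-1.64 ± 0.42) fell after stripping. Neither call held when unstripped replicate 1 was left out (edgeR adjusted p = 0.0644 and 0.0547), and Ifngr1 also without unstripped replicate 3 (0.0731) or stripped control replicate 1 (0.0504).

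Of 19 transcriptional regulators tied to these promoters or to keratinocyte identity, 2 rose and 3 fell after stripping, and 3 rose and 1 fell with NGO. Over all genes 5.97% rose and 7.64% fell after stripping, and 3.87% rose with NGO. Whether counts this small differ from those shares was not tested. Without unstripped replicate 1, 1 rose and 1 fell with NGO. Fosl1, an AP-1 subunit, rose by 3.74 ± 0.83 after stripping (edgeR adjusted p = 0.00901) and did not change past the threshold with NGO (0.45 ± 0.73, 0.784). Klf4 and Trp63, regulators of epidermal differentiation and of the basal state, fell by 2.38 ± 0.28 and 3.07 ± 0.51. With NGO they rose by 1.02 ± 0.27 (edgeR adjusted p = 0.0452) and 2.23 ± 0.50 (0.0246), and the Trp63 call ended when any NGO library was left out (up to 0.0882). Klf4 was lost with RLE scaling (0.0705) and when any of 7 libraries was left out.

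Most genes whose products anchor keratin filaments fell after stripping and rose with NGO. Of 13 genes of desmosomes and other keratin-binding proteins, 10 fell and 0 rose after stripping (median -3.39), and 7 rose and 0 fell with NGO (median 2.51). Desmoplakin, Dsp, which ties keratin filaments to desmosomes, fell by 4.20 ± 0.44 and rose by 2.54 ± 0.41. The plakophilin genes Pkp1 and Pkp3 fell by 3.39 ± 0.38 and 2.93 ± 0.36 and rose by 2.51 ± 0.37 and 2.50 ± 0.35, and the desmocollin gene Dsc3 fell by 3.80 ± 0.49 and rose by 2.54 ± 0.46.

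Other wound-edge keratinocyte genes were mixed: of 19 tested, 3 rose and 3 fell after stripping, and 2 rose and 2 fell with NGO. Without unstripped replicate 1, 4 rose and 2 fell after stripping, and 1 rose and 2 fell with NGO. S100a8 and S100a9, made by activated keratinocytes and abundant in neutrophils, rose by 10.05 ± 0.84 and 10.39 ± 0.70 and fell with NGO by 2.70 ± 0.59 and 2.50 ± 0.48. The falls were lost without NGO replicate 1 or 3 in both genes, and for S100a8 also without NGO replicate 2 or stripped control replicate 2 (edgeR adjusted p up to 0.0968). The integrin subunit gene Itga3 fell by 2.22 ± 0.58 and rose by 2.77 ± 0.59. Leaving out unstripped replicate 1 ended the call of its fall (edgeR adjusted p = 0.0829), and leaving out any NGO library ended that of its rise (up to 0.0707). The neutrophil markers took 0.00923% to 0.0147% of counts in unstripped, 0.0214% to 0.06299% in stripped control and 0.00825% to 0.0222% in NGO-treated skin, with Camp at 0 in each group. Of 8 tested, 3 rose after stripping and 2 fell with NGO, and their part in the S100a8 and S100a9 values was not tested.

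Hair follicles, where the stress keratins are made in resting skin, were read first from 10 outer root sheath and stem cell genes. They took 0.0315% to 0.0344% of counts in unstripped, 0.0189% to 0.0329% in stripped control and 0.0188% to 0.0315% in NGO-treated skin. Of 8 tested, 0 were called after stripping, and 1 fell with NGO. That gene was Lgr5, a stem cell marker, at 23.4 ± 8.23 CPM in stripped control and 0.178 ± 0.158 CPM in NGO-treated skin, and its call was lost when any of 6 libraries was left out. Cd34, Gli1 and Fzd2 did not pass in either comparison. The 16 hair shaft and inner root sheath genes took 0.00116% to 0.0189%, 0% to 0.000443% and 0.000739% to 0.00314% in the same order. Of them 2, 14 and 12 were at 0 in the whole group, and of 2 tested 0 were called. The 6 sebaceous gland genes took 0.0769% to 0.107%, 0.0053% to 0.00821% and 0.0554% to 0.0629%. Of 5 tested, 2 fell after stripping and 2 rose with NGO. The part of these shares in the keratin values was not tested. Krt75, the type II keratin of the follicle's companion layer, was chosen after its values were seen. It stood at 20.8 ± 12.2, 12.6 ± 6.10 and 12.0 ± 4.92 CPM and did not pass in any comparison.

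The genes most like each member were sought among 10287 tested genes of at least 3 in average log2 CPM, by Pearson correlation of log2 CPM over the 9 libraries, which fall into 3 groups. For Krt6a they were Capn2, a calpain protease gene (r = 0.98), the stefin gene Stfa1 (0.97) and Fscn1, an actin-bundling protein gene (0.97). Stfa1 belongs to a family of close copies, so its counts are uncertain. For Krt6b they were Fscn1 (0.97), the nuclear receptor gene Ppard (0.96) and Cyp26b1, whose product breaks down retinoic acid (0.96). Mean CPM of Capn2 was 29.95, 85.996 and 187 over the 3 groups, the same order as for Krt6a. For Krt16 the closest were Rhno1 (0.95), the clathrin heavy chain gene Cltc (0.94) and Lsm7 (0.93), and for Krt17 Spryd3 (0.96), the RNA-binding protein gene Nono (0.95) and Nckap1 (0.94). Nono, like Krt17, was lowest in stripped control skin, at 170, 52.7 and 157 CPM. For Capn2 and Nono the shared order largely follows from choosing them by correlation over these same libraries. No gene was among the 3 closest to both a type II and a type I member, which says little with 3 taken from 10287. The members themselves were left out of this search. Krt16 correlated at 0.78 with Krt6a, 0.77 with Krt6b and 0.60 with Krt17. Krt17 correlated at 0.15 with Krt6a and 0.29 with Krt6b, and Krt6a at 0.95 with Krt6b.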

How the data were processed

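Per the labels, 9 QuantSeq 3'-end libraries were made from mouse back skin. The authors deposited 1 table of whole-number read counts per gene symbol for each library. Per the submitters' processing notes, Bowtie2, bedtools and mm10 were used, with no versions, and the sources used here do not state how strand or reads with several matches were treated.

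The counts were joined by symbol, filtered with edgeR's filterByExpr (13740 genes left), scaled by TMM and fitted over all 9 libraries with edgeR 4.0.16 (robust quasi-likelihood, R 4.3.3). Adjusted p-values are Benjamini-Hochberg over all genes tested, with a threshold of 0.05. SEs were derived from the fold change and its F statistic. Ratios within a library were compared by exact two-sided permutation tests. Replicates were not duplicates: their counts differed by 7.82 to 61.5 times the sampling variance. Alternatives were other scalings and filters, DESeq2 1.42.0, limma-voom (limma 3.58.1), a replicate block, only the compared groups, summed Krt6a and Krt6b, and each library left out. Sequences came from the mm10 genome with GENCODE M21.

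The genes and lists were chosen with earlier results of these data known. Named genes were the 4 stress keratins, the 3 genes most correlated with each, and up to 4 genes per pathway list with the smallest p. A gene that this rule names is not reported here. Krt14 and Krt5 served as denominators.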

Additional observations from a re-analysis of the deposited data

How the results depend on the processing

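After stripping, the number of stress keratins called went from 1 to 2 with RLE scaling, upper-quartile scaling, DESeq2 and the replicate block, and to 3 with limma-voom. Krt6a passed in these fits, with log2 fold changes of 1.47, 1.47, 1.47, 1.52 and 1.99, and Krt6b passed with limma-voom (1.08). Krt16 turned to 0.12 with limma-voom, to 0.40 without unstripped replicate 1 and to 0.055 without stripped replicate 3. Leaving out 1 library gave counts of 0 to 1 and ranges of 1.01 to 2.22 for Krt6a, 0.25 to 1.16 for Krt6b, -0.54 to 0.40 for Krt16 and -1.69 to -0.95 for Krt17.

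With NGO against stripped control the count of 1 became 2 without a low-count filter (Krt17 1.33) and with the replicate block (Krt6a 1.60), 3 with DESeq2 (Krt6a 1.45, Krt17 1.20) and 0 with Krt6a and Krt6b summed. Leaving out 1 library gave 0 to 3, with Krt6a at 1.36 to 1.72, Krt6b at 1.64 to 1.91 and Krt17 at 1.13 to 1.55. Il24 turned to -0.16 without stripped replicate 1 and ran from -0.26 to 0.86.

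With NGO against unstripped skin the count of 2 became 1 with the pair summed, which leaves 3 features. Krt16 passed with limma-voom (1.42) and ran from 0.65 to 1.59 with 1 library left out. Krt17 turned to 0.23 with limma-voom and ran from -0.35 to 0.38 with 1 library left out. The ratio to basal keratins after stripping moved from 3.81 to 3.36 with the basal list below the line.

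Over all genes, calls ran from 1159 to 2976 around 1870 after stripping, from 118 to 1721 around 694 with NGO against stripped control, and from 214 to 1353 around 345 against unstripped skin. Limma-voom called 1405 higher and 1184 lower after stripping, against 820 and 1050, and 195 and 219 with NGO, against 532 and 162. RLE scaling moved the median of all genes from -0.20 to -0.072 after stripping and from 0.072 to -0.049 with NGO. Same-numbered libraries correlated at -0.057 to 0.086 in 9 pairs, so the numbers were not taken as pairs, and the replicate block changed no other stress keratin call. The cause of these differences was not tested.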
